A study of Mus musculus with 25 samples.

Results

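Msx1, Msx2, Pitx1, Pitx3, Alx1, Alx4, Barx1 and Barx2 are homeobox transcription factor genes of the face, skull, teeth, limbs and eye. They were chosen by name, and their coverage by H3K27me3 peaks is described here in 3 mouse cell systems. All 8 have an autosomal record among the 20661 autosomal protein-coding genes of the RefSeq table of GRCm38.p6, the assembly of mm10. For each gene the peak length was counted over its record and 5 kb on either side, called its window.

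The study asked about transcriptional memory at Polycomb target genes, and its 25 libraries fall into 13 groups. Neural progenitor cells (NPC) derived from wild-type embryonic stem cells gave 6 H3K27me3 CUT&RUN libraries. Of these, 2 came from cells under UNC1999 (2 uM) together with A395 (4 uM), both inhibitors of PRC2, 2 from cells after washout of the compounds, and 2 from untreated cells. Lines A and B of mouse embryonic fibroblasts (MEF), each immortalized with c-myc, gave 12 H3K27me3 ChIP-seq libraries, again 2 per group. Line A was studied as Ezh2 -/-, as Ezh2 -/- with retroviral pMSCV-Ezh2, and as wild type. Line B was studied as Ezh2 -/- (reversible), as endogenous Ezh2 rescue, and as wild type. The other 7 libraries, all labelled line A Ezh2 -/-, comprised 1 input, 2 for H3K4me3, 2 for H3K36me3 and 2 for RNA polymerase II. The labels do not say whether either line is a clone.

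What was analysed is 1 list of H3K27me3 peak positions for each of line A, line B and NPC. The lists carry no heights, no read counts and no per-library values, so depth is unknown, and no genotype or treatment could be compared. Both MEF lists were assigned to their lines by name, since each carries the library titles used for wild type and for Ezh2 -/- cells of 1 line, and which library contributed what to the calls is not stated in the labels or the files. Loss of Ezh2 could not be checked from positions. No value below has a replicate check, no test was possible, and every comparison describes lists. Assay and cell type both differ between the MEF and NPC lists and cannot be told apart. The line A list held 86235 peaks, the line B list 81972 and the NPC list 44807. The labels were checked against marker genes. Of 10 fibroblast markers, 9 had 0 bp of peak in line A (Col1a1 had 3.33% of its window covered) and 9 in line B (Fbn1, 5.53%), against 7 in NPC. Of 10 neural progenitor markers, 8 had 0 bp in NPC, among them Sox2, Nes and Pax6. Msi1 was among the other 2, with 8.49% of its window covered in NPC. Vim stands in both marker lists. Of 6 neuron markers, 4 had a peak in NPC, with Tubb3 and Syn2 at 0 bp and Slc17a7 the highest at 60.7% of its window. Of 6 pluripotency markers, 2 had a peak in NPC and none of them over more than 8.57%.

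H3K27me3 is placed by Polycomb repressive complex 2 (PRC2), whose catalytic subunit is Ezh2, and marks developmental genes that are held silent. Homeobox factors bind DNA through a shared homeodomain, and are classic targets of this system because each is needed in a few tissues only. Msx genes respond to BMP signals in facial and limb mesenchyme. Alx and Pitx genes belong to the paired-like class of homeobox genes, and Barx genes are related to the Bar genes of Drosophila.

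The promoters of Msx1, Msx2, Pitx3 and Barx1 are in the RefSeq promoter table (build GRCm38.p6), and those of Pitx1, Alx1, Alx4 and Barx2 were not used here. These 4 are shown as the members with an entry there, and all but Msx2 differed between lists in promoter coverage. Each run gives the 250 bases before the transcription start, 5′ to 3′ on the strand of the gene, with every CG dinucleotide in capitals.
Msx1: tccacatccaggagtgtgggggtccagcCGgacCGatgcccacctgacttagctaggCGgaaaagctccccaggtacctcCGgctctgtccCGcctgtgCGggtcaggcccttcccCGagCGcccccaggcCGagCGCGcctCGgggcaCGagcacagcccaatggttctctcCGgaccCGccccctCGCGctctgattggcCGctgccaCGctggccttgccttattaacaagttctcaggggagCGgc
Msx2: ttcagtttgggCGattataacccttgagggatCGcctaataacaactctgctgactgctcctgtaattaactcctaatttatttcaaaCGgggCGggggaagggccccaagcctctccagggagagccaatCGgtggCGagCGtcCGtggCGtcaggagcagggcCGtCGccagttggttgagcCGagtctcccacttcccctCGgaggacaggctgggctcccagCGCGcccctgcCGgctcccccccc
Pitx3: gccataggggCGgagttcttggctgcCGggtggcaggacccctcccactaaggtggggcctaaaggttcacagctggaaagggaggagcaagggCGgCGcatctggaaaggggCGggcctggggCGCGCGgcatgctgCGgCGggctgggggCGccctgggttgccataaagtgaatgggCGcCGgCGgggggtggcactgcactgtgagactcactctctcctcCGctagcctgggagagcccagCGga
Barx1: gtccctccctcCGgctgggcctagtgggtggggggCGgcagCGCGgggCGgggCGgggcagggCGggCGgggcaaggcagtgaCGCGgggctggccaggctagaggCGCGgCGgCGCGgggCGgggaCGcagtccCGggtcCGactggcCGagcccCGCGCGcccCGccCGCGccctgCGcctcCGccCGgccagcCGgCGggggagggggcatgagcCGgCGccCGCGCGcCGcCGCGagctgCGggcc
The Msx1 run lies at chr5:37824586-37824835 on the minus strand and the Msx2 run at chr13:53472781-53473030 on the minus strand. The Pitx3 run lies at chr19:46148326-46148575 on the minus strand and the Barx1 run at chr13:48662786-48663035 on the plus strand.

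In line A all 4 promoters lay wholly inside a peak. Those of Msx2, Pitx3 and Barx1 did so in line B as well, and the Msx1 promoter had 0 bp covered. In NPC the Msx2 promoter was wholly covered and the other 3 had 0 bp. Over the 16456 autosomal genes with a promoter entry, a peak touched these 250 bases for 14.1% in line A, 15.2% in line B, against 10.4% in NPC.

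The 4 promoters are rich in CG, the dinucleotide that is dense in the CpG islands where PRC2 is commonly found. Barx1 held 40 CG, more than 98.3% of the 20084 promoters, and Msx1 held 20, more than 75.4%. Msx2 and Pitx3 held 16 each, more than 64.8%, and the median promoter held 10 CG. GC content was 85.6% in Barx1, 68.8% in Pitx3, 68% in Msx1 and 61.6% in Msx2. The promoter richest in CG thus had a peak in both MEF lists and not in NPC, and the equally rich Msx2 and Pitx3 promoters differed in NPC. Among the 5021 promoters with the most CG (19 to 56), 8.17% touched a line A peak, 10.8% a line B peak and 9.94% an NPC peak, against 16.1%, 16.2% and 9.68% of the 5021 with the fewest (0 to 3).

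Letter matches to 4 further motifs were counted on both strands of the same 250 bases. GGGCGG, which itself contains a CG, occurred 8 times in Barx1, 3 times in Pitx3 and 1 time each in Msx1 and Msx2, and 43.4% of all promoters held it. CCAAT occurred 2 times in Msx1, 1 time in Msx2 and 0 times in Pitx3 and Barx1, with 35.3% of all promoters holding it. TAATTA, a sequence that many homeodomains bind, occurred 1 time in Msx2 and in 4.25% of all promoters. TATAAA occurred in none of the 4 and in 11.7% of all promoters.

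Peaks were present at nearly every one of the 8 genes, while the length covered differed sharply between genes and between lists. A line A peak lay in all 8 windows, a line B peak in 7 and an NPC peak in 7. Over all 20661 genes the shares were 40.2%, 40.9% and 31.9%. Pitx1 was the gene without a peak in line B, and Barx1 the gene without a peak in NPC.

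At least 50% of the window was covered for 6 of the 8 in line A, 5 in line B, against 3 in NPC. The shares of all genes were 9.98%, 9.71% and 3.91%. At least 90% was covered for 5 genes in line A, 2 in line B, against 3 in NPC. The shares of all genes were 1.86%, 2.27% and 0.784%. The median of the 8 genes was 95% of the window in line A, 64.9% in line B, against 10.3% in NPC, and the median of all genes was 0% in each list. In NPC the genes thus fell apart into 3 with nearly full coverage (Msx2, Pitx1 and Alx1) and 5 with 13.9% or less. Where at least 10% of the window had to be covered, the NPC count was 4 of 8 in place of 7. The share of all genes was then 16.3% in place of 31.9%.

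**Figure D1:**
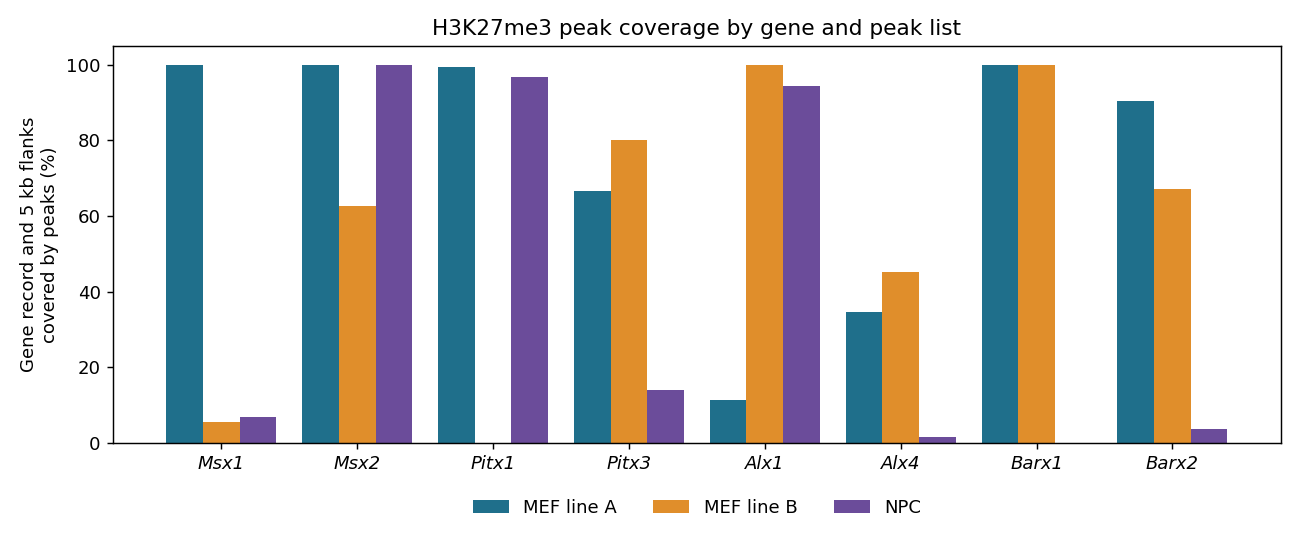
Percent of the gene record and its 5 kb flanks covered by H3K27me3 peaks (vertical axis) for each of the 8 genes, with 1 bar for each peak list and no replicates. Msx2 is the gene with at least 62.7% covered in every list, Pitx1 has no bar in line B and Barx1 none in NPC.

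The Msx genes code for homeodomain repressors downstream of BMP signals. Msx1 is needed for the palate and teeth, and Msx2 for growth of the skull vault and for hair and skin appendages. Msx1 (NCBI gene 17701, chromosome 5, 37820491 to 37824585) had 100% of its window covered in line A, 5.60% in line B, against 6.70% in NPC. In line A a peak of 24.9 kb, wider than 98.9% of the peaks of that list, contained the whole window. The other lists left the record itself bare.

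Line B had no peak over 27.8 kb around Msx1 (37816280 to 37844120), of which line A peaks covered 88.0% and NPC peaks 33.3%. NPC had no peak over 14.3 kb (37816436 to 37830757), of which line A peaks covered 100% and line B peaks 0%. The peak nearest to the record lay 4.21 kb to its left in line B (1.5 kb wide) and 4.05 kb to its left in NPC (1.19 kb wide), and these overlapped each other over 0.789 kb of the window. The Msx1 start lay inside the peak in line A, with 15.2 kb of the same peak upstream and 9.72 kb downstream of it. The surroundings were marked in every list, since peaks covered 65.1% of the record with 50 kb on either side in line A, 46.8% in line B, against 43.5% in NPC. Among all genes, 0 bp on the record with a peak in the 5 kb flanks was found for 12.7% in line B and 9.60% in NPC, so that feature alone is not rare. How many genes had it in both lists, with surroundings as covered and a full line A window, was not counted.

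Msx2 (gene 17702, chromosome 13, 53466881 to 53472780) was covered over 100% of its window in line A, 62.7% in line B, against 100% in NPC. It was the only one of the 8 covered over at least 50% in all lists, which held for 1.39% of all genes. A peak of 27.2 kb contained the window in line A and a peak of 26 kb in NPC. In line B the window met 3 peaks of 15.6, 0.459 and 13 kb. The transcription start lay in the last of these, which reached 10.9 kb upstream and 2.08 kb into the gene, and the record was covered over 35.3%. Msx2 is read from the minus strand, so the uncovered part in line B lay toward its 3′ end. The paralogs thus shared full coverage in line A and differed by 57.1 percentage points in line B and by 93.3 in NPC.

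Pitx1 sets hindlimb identity and is also used in the jaw and pituitary, and Pitx3 is needed in the lens and in midbrain dopamine neurons. Pitx1 (gene 18740, chromosome 13, 55825044 to 55836190) was covered over 99.5% of its window in line A, 0% in line B, against 96.7% in NPC. The record itself was covered over 100% in both line A and NPC, by peaks of 22.7 and 21.8 kb. These peaks ended within 1 kb of each other on both sides (55820152 to 55842804 in line A, 55820752 to 55842528 in NPC), and line A peaks contained 100% of the NPC peak length in the window.

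Line B had no peak within 303 kb of Pitx1. The stretch without a line B peak ran over 618 kb (chromosome 13, 55521021 to 56139432) and contained 13 protein-coding records, Pitx1 among them. Of the 81953 gaps between neighbouring line B peaks, 573 (0.699%) were as long or longer. That is a share of gaps and not of genes, and a long gap takes up more of the genome than a short one. The share of all genes lying in gaps as long was not counted. In the same stretch line A had 26 peaks over 194 kb and NPC 15 peaks over 53.6 kb. Whether reads of line B could be mapped there was not tested, since no signal was analysed.

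Pitx3 (gene 18742, chromosome 19, 46135281 to 46148325) was covered over 66.6% of its window in line A, 80.1% in line B, against 13.9% in NPC. The record was covered over 83.5% in line A, 83.8% in line B, against 11.2% in NPC. The start lay in a peak of 8.99 kb in line A and of 13.5 kb in line B, which ended 2.31 and 2.56 kb upstream of it. Upstream of these the next peak was 144 kb away from the record in line A and 143 kb in line B, so the block had a like edge in both lines. On its other side, peaks less than 3 kb apart joined into a region of 59.3 kb in line B and 17.9 kb in line A. Line A had further peaks on that side, beyond a gap longer than this limit, so the lengths depend on it. Peaks covered 36.1% of the record with 50 kb on either side in line A and 45.9% in line B. In NPC 2 small peaks of 1.74 and 1.46 kb lay in the window, and neither held the start. The record of Elovl3, a gene of fatty acid elongation, overlaps that of Pitx3 and had 59.0, 84.4 and 12.6% of its own window covered in line A, line B and NPC, partly by the same peaks.

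Alx1 is needed for the frontonasal skeleton and closure of the cranial neural tube, and Alx4 for the skull and for the anterior-posterior pattern of the limb. Alx1 (gene 216285, chromosome 10, 103007847 to 103029549) was covered over 11.4% of its window in line A, 100% in line B, against 94.5% in NPC. Line A had 1 peak of 3.60 kb there, inside the record, and both flanks had 0 bp. In line B a peak of 38.2 kb contained the window. In NPC peaks of 6.27 and 58.9 kb covered it except for a gap inside the record, and the joined region of 66.9 kb ranked 134 by length among 31872 joined NPC regions. On its left the next line A peak was 183 kb away.

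Alx4 (gene 11695, chromosome 2, 93642434 to 93681341) had 34.7% of its window covered in line A, 45.1% in line B, against 1.46% in NPC. It was the only one of the 8 below 50% in every list, and 15.2% of all genes reached 50% in at least 1 list. Its coverage was uneven along the record. The left 5 kb flank was covered over 94.9% in line A and 100% in line B, the record over 29.4% and 40.1%, and the right flank over 15.7% and 29.4%. In line B a peak of 37.9 kb crossed the left end of the record, and a further 11 peaks of 0.255 to 2.16 kb followed. In line A the peaks ran in 4 blocks from 93632081 to 93657625, and 3 peaks of less than 1 kb lay further right. The only NPC peak in the window was 713 bp wide (93642177 to 93642889) and lay over the left end of the record. It shared 1 bp with line A peaks, whose neighbouring blocks ended at 93642177 and resumed at 93642953, while a line B peak contained it. Which end of the record holds the Alx4 start was not read here, because the gene table gives no strand.

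Barx1 takes part in patterning of the molar teeth and the stomach, and Barx2 in differentiation of cartilage, muscle and glands. Barx1 (gene 12022, chromosome 13, 48663036 to 48666507) was covered over 100% of its window in line A and line B and 0% in NPC. It was the only one of the 8 with a peak in both MEF lists and none in NPC, a pattern found for 12.4% of all genes. The peak over its start was 18.6 kb wide in line A and 54.0 kb in line B. Upstream of the start these reached 7.07 and 7.04 kb, and their left ends lay at 48655971 and 48655994. Downstream they reached 11.6 kb in line A and 47.0 kb in line B. After joining, the region was 126 kb in line A and 106 kb in line B, which ranked 155 of 38821 and 202 of 38018. The nearest NPC peak lay 12.1 kb to the right, and to the left NPC had none for 197 kb.

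Barx2 (gene 12023, chromosome 9, 31846044 to 31913285) is the longest of the 8 records at 67.2 kb. Its window was covered over 90.5% in line A, 67.2% in line B, against 3.71% in NPC. Line A had 6 peaks in the window, the widest 28.1 kb, and its joined region of 148 kb ranked 89 of 38821. Line B had 10 peaks in the window, the widest 28.9 kb. NPC had 0 bp on the record, and 2 peaks of 0.470 and 3.25 kb began 0.133 kb beyond its right end. The stretch without an NPC peak was 246 kb long (31667248 to 31913418), of which line A peaks covered 82.2% and line B peaks 46.1%. The paralogs thus had high coverage in both MEF lists and little or none in NPC.

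**Figure D2:**
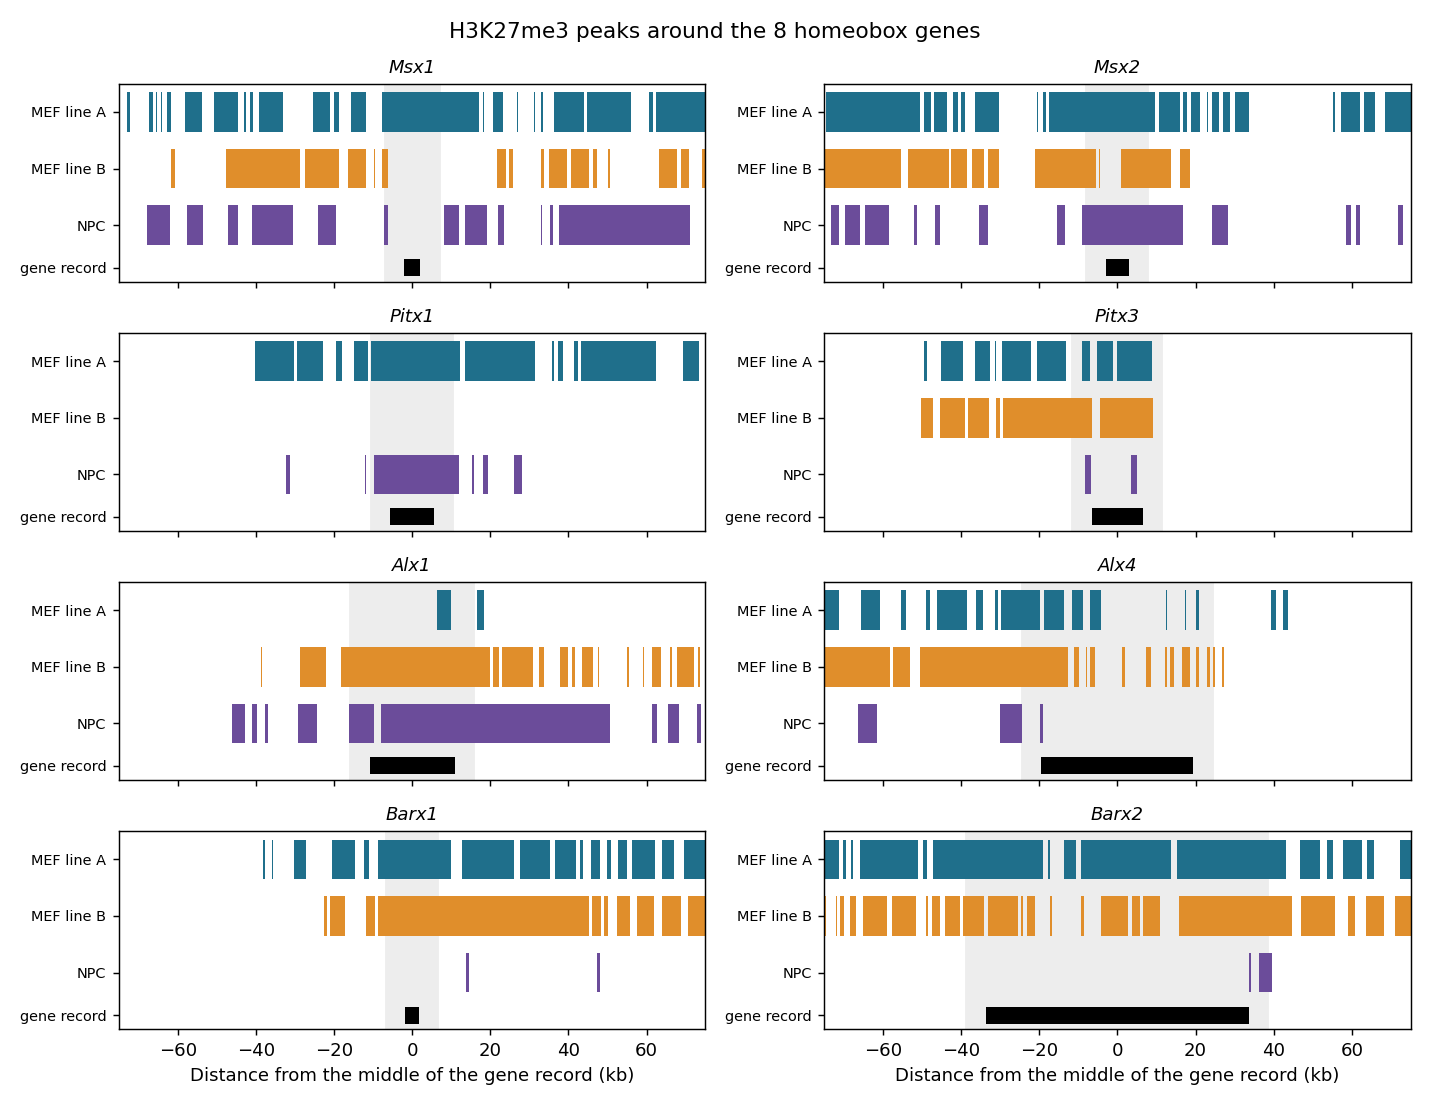
H3K27me3 peaks (coloured blocks, 1 row for each list) within 75 kb of the middle of each gene record (black block), plotted by distance in kb, with the record and its 5 kb flanks shaded. Line B has no peak in the Pitx1 panel, line B and NPC leave the Msx1 record bare between marked surroundings, and NPC has few peaks around Pitx3, Alx4, Barx1 and Barx2.

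The windows differed in which part carried the peaks. In line A, 4 records (Msx1, Msx2, Pitx1 and Barx1) were covered over 100%, and in line B and NPC 2 each (Alx1 and Barx1 in line B, Msx2 and Pitx1 in NPC). Pitx3 and Alx1 in line A were covered more on the record than in either flank. Msx1, Msx2, Pitx3, Alx4 and Barx2 in line B were covered less on the record than in their better covered flank. The same held for Alx4 and Barx2 in line A. The plot of window parts shows these values side by side.

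**Figure D3:**
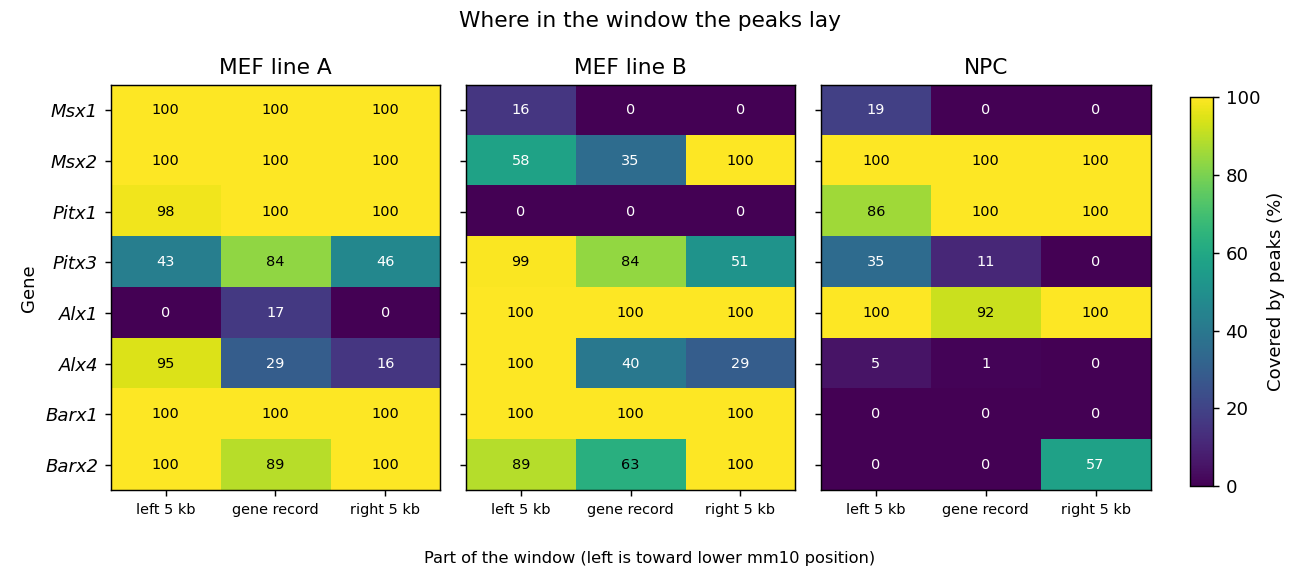
Percent covered by peaks (colour and printed value, rounded) of the 5 kb to the left of the record, the record, and the 5 kb to its right, for each gene and peak list. Left is toward the lower mm10 position, so for Msx1, Msx2 and Pitx3 the right side is upstream, and for Barx1 the left side is.

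The line A and line B lists, both from fibroblasts, differed widely at 3 of these genes and less at the rest. Coverage was at least 50 percentage points apart at Msx1, Pitx1 and Alx1, as for 3.51% of all genes. Coverage was higher in line A at Msx1 (a difference, line A minus line B, of 94.4 points) and Pitx1 (99.5 points), in a direction and size found for 2.05% of all genes. It was lower in line A at Alx1 (-88.6 points), as for 1.46% of all genes. Differences as large in either direction were found for 0.160% of genes at Msx1, 0.0968% at Pitx1 and 0.286% at Alx1. At the other 5 genes the difference ran from -13.5 points (Pitx3) to 37.3 points (Msx2), and Barx1 had 0. Most genes have no or little coverage in either list and cannot differ by that much, which these shares include.

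Both MEF lists had peaks at 7 of the genes, and the overlap of positions differed between genes. At Msx1, 5.60% of the line A peak length in the window lay in line B peaks and 100% of the line B length in line A peaks, and at Alx1 the shares were 100% and 11.4%. A share of 100% follows where the other list covers the whole window, as at Msx1, Msx2, Alx1 and Barx1. At Pitx3, 94.5% of the line A peak length in the window lay in line B peaks, and 78.6% of the line B length lay in line A peaks. At Barx2 the shares were 73.6% of the line A length and 99.2% of the line B length, and at Alx4 80.2% and 61.7%. At Msx2 they were 62.7% and 100%.

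Line A had at least 50 points more coverage than NPC at 4 of the 8 genes (Msx1, Pitx3, Barx1 and Barx2), against 5.56% of all genes, and at least 50 points less at Alx1, against 1.05%. Line B had at least 50 points more than NPC at Pitx3, Barx1 and Barx2, against 6.11% of all genes, and at least 50 points less at Pitx1, against 1.56%. Coverage of at least 50% in both MEF lists and not in NPC was found at Pitx3, Barx1 and Barx2, and at 4.52% of all genes. Pitx1 was the gene with such coverage in line A and NPC but not in line B (0.750% of all genes), and Alx1 the gene with it in line B and NPC but not in line A (0.344%). Each of these lists was set against the others with the same peaks, so the differences are not independent.

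Genes with the most similar coverage were sought by Euclidean distance over the 3 percentages, among genes with windows within 2 times the length. The measure rests on 3 values only. For Pitx1, 5 of 12636 genes lay within 5 percentage points in every list, and the nearest were Dlx6, a homeobox factor of the jaw, and Hsfy2, each at 3.39 points. For Alx1 no gene lay as near, and Sp8, a limb and forebrain zinc finger factor, came first at 12.6 points, with Pifo next at 13.9. For Barx1, 31 of 9190 genes lay within 5 points, with the homeobox genes Barhl2 and Evx1 first by alphabet among ties at 0.

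For Msx1, 1 of 9581 genes lay within 5 points in each list, and Il2 and Fahd2a had the smallest distances (6.72 and 6.80 points). For Msx2 none of 10547 did, and Dbh (9.89 points) and the homeobox gene Tlx2 (10.3 points) came first. For Pitx3 4 genes did, with Ces1d and Psmb9 first at 3.90 and 3.97 points. For Alx4 16 did, led by Dleu7 (1.86 points) and Zfp385c (2.74 points), and for Barx2 6 did, led by Ebf4 (3.54 points) and Asb18 (3.61 points).

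Flanking protein-coding records were covered less than the homeobox gene beside them in 39 of 48 comparisons (16 records in 3 lists). Records that overlap a member were not counted. The median of all genes was 0% in each list, so most genes would also lie below a well covered one. Catsper3, a sperm ion channel gene whose record ends 0.996 kb from Pitx1, had 62.1% of its window covered in line A, 0% in line B, against 19.6% in NPC, in a window that overlaps that of Pitx1. Macroh2a1 on the other side, 237 kb away, had 2.87, 1.66 and 0%. Ptpdc1 and Phf2 flank Barx1 at 37.4 and 135 kb, and neither had more than 1.32% covered in any list. Lrriq1, 14.8 kb from Alx1, had 1.21% in line A, 23.4% in line B, against 49.3% in NPC. The dopamine receptor gene Drd1, 578 kb from Msx2, was covered over 93.6, 93.8 and 59.5%, and Tmem45b, 382 kb from Barx2, over 55.2, 29.1 and 1.29%.

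Other homeobox genes of the same or related families were counted in the same way. Of 6, Msx3, Prrx1, Prrx2 and Shox2 among them, line A had a peak at 4, line B at 3 and NPC at 5. Msx3, of the dorsal neural tube, had 35.6% of its window covered in line A, 55% in line B, against 80.8% in NPC. Prrx2 had 2.46% in line A, 0% in line B, against 4.61% in NPC, and Shox2, of the proximal limb, had 11.4% in NPC only. Prrx1, a limb mesenchyme factor named here after its values were seen, had 0 bp in every list.

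Among 25 other transcription factors of face and limb development, line A had a peak at 17, line B at 15 and NPC at 11. At least 50% of the window was covered for 9, 7 and 2, and the median percentage was 33.5, 4.61 and 0. Dlx6 and its neighbour Dlx5, factors of the lower jaw, were covered over 100% and 82.6% in line A, 0% in line B, against 100% in NPC, and Pitx1 likewise had no line B peak. Tfap2b, of neural crest, was covered over 68.6, 100 and 43.0% in line A, line B and NPC, Hand2, of jaw, limb and heart, over 100, 46.5 and 39.7%, and Six2, of the frontonasal mesenchyme and kidney, over 100, 93.3 and 8.24%. Meis2 had a peak in line B, over 0.130% of its window, and not in line A. Named after their values were seen, 6 had no peak in any list, which were En1, Foxc1, Runx2, Sox9, Tbx15 and Twist1. For 6 of the 25 the MEF lists differed by at least 50 points, as for 3.51% of all genes.

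Of 17 genes of BMP signalling with Fgf8, Fgf10 and Shh, line A had a peak at 7, line B at 8 and NPC at 9, shares of 41.2, 47.1 and 52.9% beside 40.2, 40.9 and 31.9% of all genes. The 4 most covered all code for secreted proteins. Shh was covered over 66.7, 95.2 and 68% in line A, line B and NPC, the BMP antagonist gene Nog over 66.5, 35.8 and 83.8%, Fgf8 over 56.6, 80.3 and 30.7%, and the antagonist gene Grem1 over 28.4, 72.6 and 31.4%. Bmp2 had 0% in line A, 62.1% in line B, against 24.6% in NPC, Fgf10 had 0, 8.69 and 17.9%, and Bmp7 had 15.8, 0 and 4.15%. Without a peak in any list were 7 genes, named after their values were seen, which were the ligand gene Bmp5, the receptor genes Bmpr1a and Bmpr2, and Smad1, Smad4, Smad5 and Smad9, whose products carry the BMP signal to the nucleus. The share of all genes without a peak in any list was not counted. Most genes lack a peak in each single list, so this count is not read as a trait of the pathway.

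**Figure D4:**
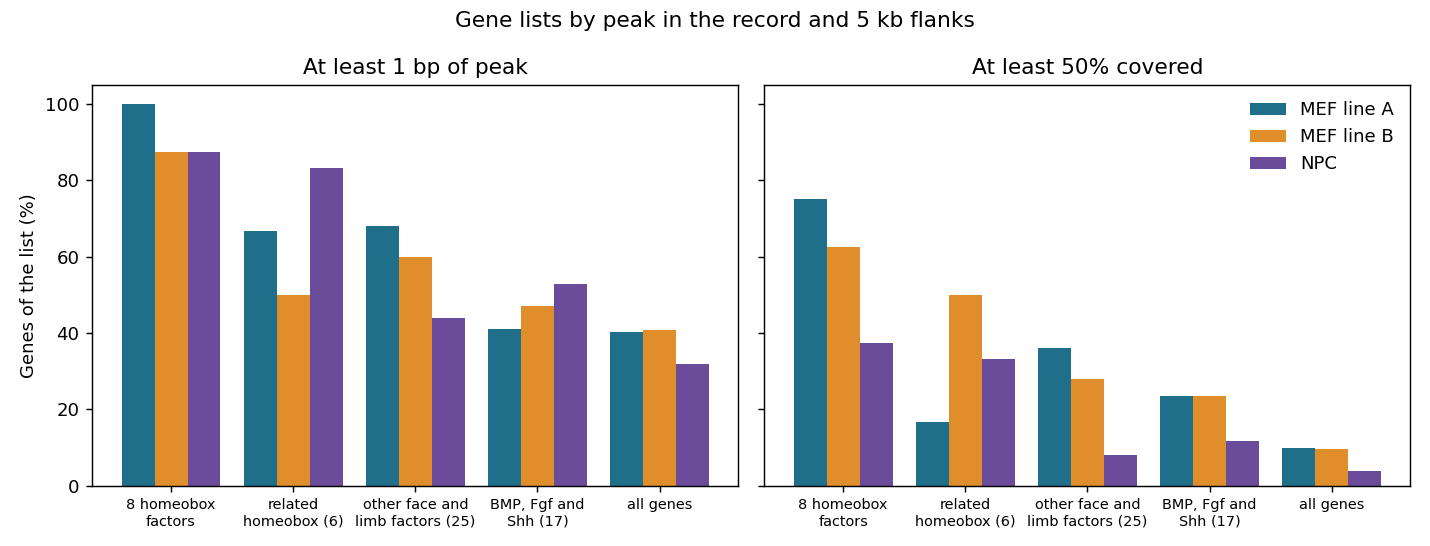
Percent of the genes of each list with at least 1 bp of peak (left) and with at least 50% covered (right) in the record and 5 kb flanks, for the 8 homeobox factors, the other lists with their gene numbers, and all 20661 genes. On the left the 8 factors reach 100% for line A and 87.5% for both line B and NPC, and on the right 75, 62.5 and 37.5%.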

How the data were processed

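The files analysed were 3 deposited lists of H3K27me3 peaks, each line giving a chromosome, start and end and no header, score or p-value. They belong to the series as a whole. Per the submitters' processing notes, which state neither role nor order, MACS2 2.1.1.20160309, deepTools, DESeq2, Picard and Bowtie2 2.2.9 were used with dm6 and mm10. How peaks were thresholded, controlled and pooled is not given in the sources used.

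The gene table gave 20661 autosomal protein-coding genes, 1 record per gene ID. Covered bases were counted over each record with 5 kb flanks (at least 1 bp for a peak) in Python 3.11.15 with numpy 2.4.6, pandas 2.3.3, scipy 1.17.1 and matplotlib 3.10.9. The counting was checked on simulated intervals. Starts were read as 0-based and printed 1-based. The members, lists and tests were chosen with earlier results of these data known.

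All 8 members were described. Of each other list, the 4 genes with the highest coverage in any peak list (5 where tied) and those with a peak in 1 MEF list only were named. Also named were the nearest records, and the 2 genes most alike in coverage, leaving out predicted genes. A few genes that this rule picks are not reported here. Depth is unknown, so no interval of counting error was given for coverage.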

Additional observations from a re-analysis of the deposited data

How the results depend on the processing

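The counts of members were recomputed with no flank, 2 kb and 10 kb flanks, peaks of at least 1 kb, equal numbers of widest peaks, peaks less than 3 kb apart joined, at least 10% of the window, genes no longer than the longest member, 2 kb around the start, and, chosen after seeing the data, windows of equal length (22.1 kb). Of 66 recomputed counts, 61 stayed within 1.5 times the reported one. Limiting genes to those no longer than the longest member changed only the shares of all genes, so its counts could not move. The NPC count with a peak was 4 in place of 7 where 10% was required, and the share of all genes 16.3% in place of 31.9%. The count with a peak in both MEF lists and not in NPC was reported as 1. It was 2 on the record alone and 2 with peaks of at least 1 kb. It was 3 where 10% was required and 3 with windows of equal length. Small or flanking NPC peaks did not count under these settings. The windows of equal length were also shorter than the records of Alx4 (38.9 kb) and Barx2 (67.2 kb). They left out the ends of both records, and with them the NPC peak over the left end of Alx4. The shares of all genes were 9.09, 11.4, 9.83 and 10.8% in that order, against 12.4% as reported. Of 192 coverage percentages of single members, 173 stayed within a 95% exact binomial interval that took each kb of the window as 1 trial. That is a rough scale, since neighbouring kb are not independent. Of the 192, 24 came from the limit on gene length and could not move. Around the start of the 4 genes with a promoter entry, line A had a peak at 4, line B at 3 and NPC at 2. The shares of the 16456 genes with an entry were 23.9, 25.1 and 17.5%. No paired analysis was possible because the lists hold no per-library values. Leaving out a replicate was not possible for the same reason.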
